A study of Triticum aestivum with 16 samples.

Results

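Flag leaves of the bread wheat line SB138 were compared with flag leaves of 7 other lines. The members were the 2 arrays whose titles name SB138, out of 16 arrays, and they were set against the mean of the 7 other line means. All 8 lines (SB15, SB33, SB53, SB80, SB138, SB146, SB165 and SB189) are recombinant inbred lines of the cross Seri M82 x Babax, that is, inbred descendants in which the parents' chromosomes are mixed. Every line was sampled 6 to 8 days after anthesis from 2 field replicates, which the labels call biological, in an irrigated field in 2007. The labels name no treatment and give no carbohydrate level for SB138 or another line. How many plants made up a sample is not given in the sources used here. Levels are the deposited log2 signals of an Affymetrix wheat array, on which a difference of 1 is a doubling, and probe sets with a mean of at least 5 over the 16 arrays are called bright below.

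The flag leaf is the last leaf below the ear and a main source of sugar for the growing grain. Wheat leaves and stems hold water soluble carbohydrates, mainly sucrose and fructans, and fructan exohydrolases release fructose from stored fructan. The series concerns genotypic differences in that metabolism. Lines of a cross differ in which parental allele they carry at each segregating gene, so a transcript whose level depends on such an allele is often shared by several lines. Bread wheat carries 3 related genomes, and the near-identical copies of a gene can share probes.

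Genes of the photosynthetic leaf were among the brightest on the SB138 arrays. The large subunit of Rubisco (rbcl), which fixes CO2, read 16.67 and 16.63 on its brightest probe set, and the Rieske protein of the thylakoid electron transport chain (petC) read 15.31 and 15.39. Of 23 probe sets for grain storage and endosperm genes, the ALP probe set alone was bright, at 11.61 and 11.35, and the highest mean of 4 anther probe sets was 2.41, near the floor of the values at 2.25. The SB138 replicates correlated at 0.9935 over bright probe sets, with a median absolute difference of 0.122, against 0.106 to 0.163 in the other lines. Among the control measures, 18S ribosomal RNA read 7.61 and 7.26 in SB138 and 5.11 to 12.09 elsewhere, and the 3′ minus middle signal of glucose 6-phosphate dehydrogenase read 1.85 and 1.69 against 0.98 to 1.78. The smallest two-sided exact permutation p among the control measures was 0.108 over 120 arrangements, for the latter, and its part in the results was not tested. The permutation treats single arrays as independent, although each line gave 2.

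In SB138, 421 of 19740 bright probe sets (2.13%) passed at a limma adjusted p below 0.05. Of these, 222 were higher (1.12%) and 199 lower (1.01%) than the mean of the other lines. Over all 61115 probe sets, 621 passed (1.02%), with 362 higher (0.592%) and 259 lower (0.424%). The median absolute difference of the 421 was 0.824, and the smallest was 0.0776. Large differences were more often losses than gains: 95 of the 166 that reached 1 were lower in SB138, and 39 of the 51 that reached 2. The median difference over all bright probe sets was 0.01. The count of 421 placed SB138 level with SB146 at rank 4 of the 8 lines, after SB80 (1242), SB165 (793) and SB189 (516). The bright count was 837 when only bright probe sets were tested, 680 with array medians subtracted, 293 without SB138 replicate 2 and 682 without SB189 replicate 1. Over all probe sets, each omission of 1 array gave a higher count than 621, from 986 to 2409. The spread was estimated from 2 arrays per line, and the p-values measure the spread between field replicates. On some probe sets both arrays of a line read the same value, and the SE and p-value can then be too low.

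**Figure D1:**
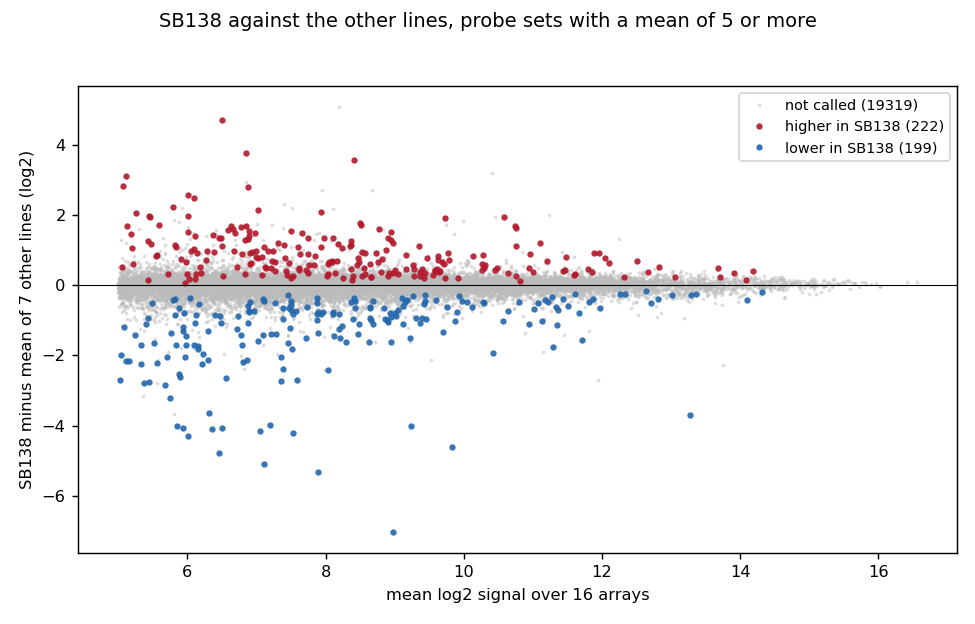
Each point is a bright probe set, with its mean log2 signal over 16 arrays on the horizontal axis and the SB138 mean minus the mean of the 7 other line means (log2) on the vertical axis. The 222 higher probe sets are red and the 199 lower ones blue. Called differences reach 4.70 on the higher side and -7.02 on the lower side.

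The first question was which annotated genes set SB138 apart. The platform annotation names a gene for 690 bright probe sets, and 7 of these passed (1.01%), 5 of them higher and 2 lower in SB138. GA20ox1d is the only 1 of the 7 with a gene name, and the others carry a locus number, for which no role is given here.

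GA20ox1d (LOC543325) encodes a gibberellin 20-oxidase, an enzyme late in the synthesis of the growth hormone gibberellin. Its probe set Ta.141.1.S1_at read 6.31 and 6.27 in SB138, and 4.64, 5.43 and 6.11 as the lowest, median and highest of the 14 other arrays. Both SB138 arrays lay above every other array, with SB165 next (mean 6.10) and SB189 lowest (4.89). The difference of 0.85 ± 0.13 (SE) passed (limma adjusted p = 0.0227), and in pairs SB138 differed from SB33 and SB189 only. Both SB33 arrays and SB189 replicate 1 read the same value, 5.152, so this SE and these p-values can be too low. Without SB138 replicate 1 or replicate 2, or without both SB80 and SB165, the call ended. The second GA20ox1d probe set, Ta.141.1.S1_x_at, read 5.13 and 5.34 in SB138 against 4.79 to 5.48 elsewhere, a difference of 0.09 with a 95% interval of -0.19 to 0.37. Of the 4 probe sets of 3 gibberellin 20-oxidase genes, only these 2 of GA20ox1d were bright. Of the 4, 1 passed, beside 1.02% of all probe sets, and it is named here because it passed.

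LOC542947 was higher in SB138 than in most lines. Its probe set Ta.10480.1.S1_a_at read 12.77 and 12.69 in SB138, with 11.29, 11.86 and 12.53 as the lowest, median and highest of the other arrays. SB138 was again above every other array, closely followed by SB165 (12.48) and SB33 (12.38). The difference was 0.79 ± 0.09 (SE), a 1.73-fold higher signal (limma adjusted p = 0.00666), and the pair tests passed against the 5 lines SB15, SB53, SB80, SB146 and SB189. This call held in all 25 alternative settings run.

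LOC543424 was higher by a small amount at a high level. Its arrays read 13.92 and 13.90 in SB138 against 13.54 to 13.80, so the groups did not overlap, and the difference was 0.23 ± 0.04 (SE, limma adjusted p = 0.0356). Its other probe set gave -0.07 and did not pass. The call ended in 7 of 25 settings, among them the omission of either SB138 array.

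LOC780602 and LOC542911 were higher in SB138 together with other lines. LOC780602 read 8.58 and 8.57 in SB138 on Ta.28514.1.A1_at and passed as higher by 0.82 (limma adjusted p = 0.00215), yet 5 of the other lines lay at 8.27 to 8.83. The low lines were SB80 at 5.27 and SB189 at 6.17, the call ended without SB80, and the 4 other probe sets of this gene did not pass. LOC542911 read 10.79 and 10.66, next to SB15 (10.79) and SB53 (10.77), while the remaining lines lay between 9.94 and 10.06, and its difference was 0.49 (limma adjusted p = 0.0145). Its call ended without SB138 replicate 1 and without both SB80 and SB165.

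Both annotated genes that were lower shared their low level with other lines. LOC543111 read 9.24 and 9.21 on Ta.22794.1.S1_at, against 9.17, 9.71 and 10.45 as the lowest, median and highest of the other arrays. The difference was -0.61 (limma adjusted p = 0.0181), with SB189 (9.34) and SB146 (9.41) nearly as low and SB33, SB53 and SB80 between 10.22 and 10.41. Its call ended without SB138 replicate 2 and without SB80, and its 2 other probe sets gave -0.34 and -0.24 and did not pass. LOC100049056 read 5.60 and 5.69, against 5.06, 7.03 and 8.01 elsewhere. SB80 was lower still at a mean of 5.43, the difference was -1.24 ± 0.21 (SE, limma adjusted p = 0.0387), and the call ended without either SB138 array.

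**Figure D2:**
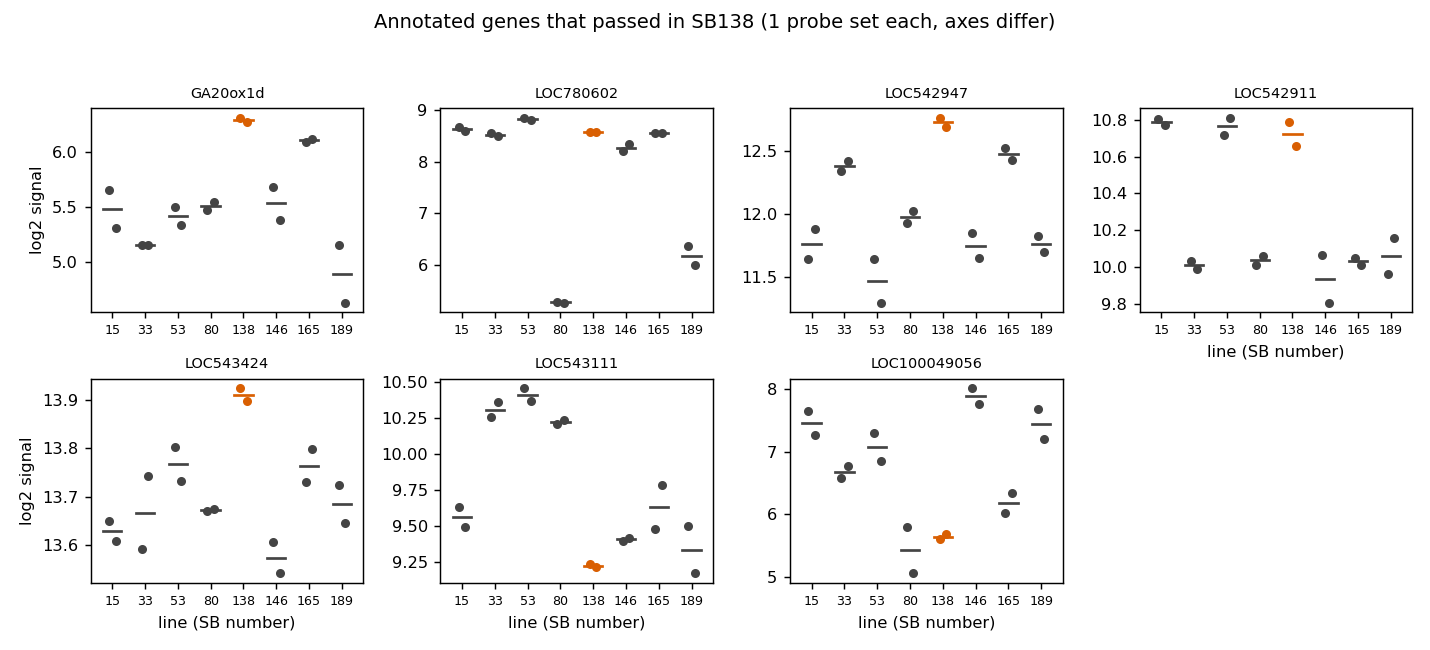
Each panel gives the log2 signal of 1 probe set on the 16 arrays by line, with points for the 2 arrays and a bar for their mean; SB138 is orange and the vertical axes differ between panels. SB138 lies above every other array for GA20ox1d, LOC542947 and LOC543424, and alongside other lines for the remaining 4 genes.

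LOC542871 missed the threshold although neither of its probe sets overlapped with other arrays. It read 11.73 and 11.96 in SB138 on Ta.1526.1.S1_at, against 12.15 to 12.83 elsewhere, and 13.12 and 13.39 on Ta.1526.1.S1_x_at, against 13.52 to 14.10. The differences were -0.66 and -0.56, with limma adjusted p-values of 0.0593 and 0.0716, and the first passed in 11 of 25 alternative settings. LOC606345 (0.80, limma adjusted p = 0.0535) was low in SB80 and SB189, and LOC100037539 (-0.39, limma adjusted p = 0.0573) was as low in SB146 as in SB138.

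The 2 annotated fructan breakdown genes did not pass in SB138. The searched list of fructan synthesis genes had no member in the annotation, so fructan synthesis was not examined. The fructan exohydrolase 6-FEH (LOC780575) read 8.73 and 8.85 on its brighter probe set, Ta.30950.1.A1_x_at, against 8.27, 9.05 and 10.06 as the lowest, median and highest elsewhere. SB138 lay inside the range of the other lines, with a difference of -0.39 and a 95% interval of -0.66 to -0.12 (limma adjusted p = 0.279), and in pairs it differed from SB33 and SB80. On Ta.9641.1.A1_a_at it read 5.28 and 6.43, a difference of -0.78 with an interval of -1.48 to -0.08 (limma adjusted p = 0.378). The other fructan exohydrolase, 1-FEHw2, read 12.48 and 12.58, a difference of 0.13 with an interval of -0.07 to 0.33.

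The 7 annotated carbon fixation and thylakoid genes held no call in SB138, and probe sets without a gene could not be assigned to this group. Of the 37 probe sets of 7 carbon fixation and thylakoid genes 0 passed by limma, 3 had an unadjusted p below 0.05, and with 1.02% of all probe sets passing a group of this size may hold no call. Their 17 bright probe sets had a median difference of -0.01, beside 0.01 over all bright ones. Phosphoribulokinase (PRK), an enzyme of the Calvin cycle, read 14.95 and 14.96 in SB138, with an interval of the difference of -0.15 to 0.17, and the oxygen-evolving protein PsbP read 14.99 and 15.02, with an interval of -0.02 to 0.07. The rbcl label covers probe sets at very different levels in SB138, from 16.67 on the brightest to the floor, and the differences of its bright probe sets ran from -0.53 to 0.52. Catalase (CAT1), which removes hydrogen peroxide, read 15.05 and 15.06, and the 11 bright probe sets of 5 redox and detoxification genes had a median of -0.03.

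The housekeeping and defence groups held no call either, and they are too small to be read against the 2.13% of bright probe sets that passed. The 7 bright tubulin probe sets, which encode subunits of microtubules, had a median of 0.17, and Tubb5 on Ta.214.2.A1_x_at had the largest difference of the group at 0.31 (limma adjusted p = 0.202). In pairs this probe set differed from SB15 and SB146 (limma adjusted p = 0.0128 and 0.0109). The 8 bright probe sets of translation factors and ribosomal proteins lay between -0.09 and 0.11. Among defence genes, the xylanase inhibitor XIP-I read 7.53 and 7.13 on Ta.1200.1.S1_at against 6.80 to 8.84, with a pair difference from SB165 (limma adjusted p = 0.0432), and the pathogenesis-related protein PR5 read 14.01 and 13.27 against 12.31 to 14.62. The ADP-glucose pyrophosphorylase subunit AGP-S, an enzyme of starch synthesis, read 11.55 and 11.49, a difference of -0.12 with an interval of -0.31 to 0.08. In each of these groups the bright members of SB138 overlapped with the other lines.

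**Figure D3:**
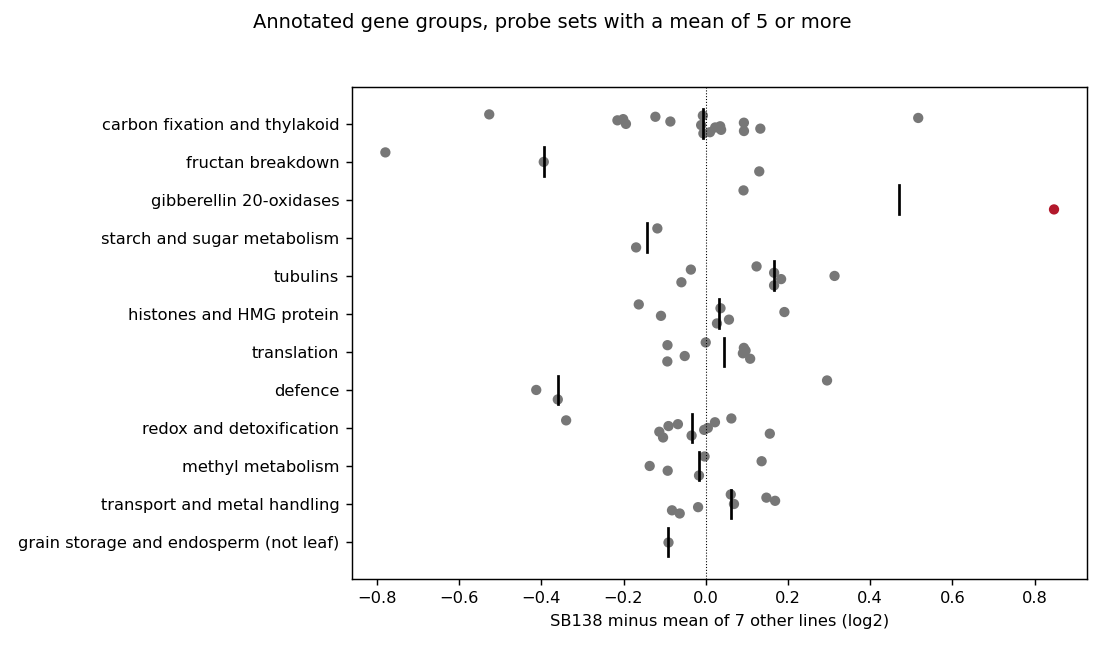
Each point is a bright probe set of an annotated gene, placed by the SB138 mean minus the mean of the 7 other line means (log2), in rows by gene group, and the black bar is the group's median. The GA20ox1d point at 0.85 (red) alone passed, and all other points lie between -0.78 and 0.52.

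The largest differences lay in probe sets without a named gene. Of the 421 bright calls, 414 have no gene in the annotation. The annotation names a gene for only 690 of all 19740 bright probe sets, so most calls would lack a gene in any case. For 170 of the 421 both SB138 arrays lay outside the range of the other 14 (102 above, 68 below). Over all bright probe sets 846 lay outside that range (4.29%), 558 above (2.83%) and 288 below (1.46%). The transcripts below were chosen by size of difference among called probe sets with no overlap.

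TaAffx.56231.1.S1_at was the largest gain of this kind. It read 9.20 and 9.45 in SB138, and 2.31, 8.23 and 9.14 as the lowest, median and highest elsewhere. Its difference of 2.79 (limma adjusted p = 0.00111) came from SB146 (2.73), SB53 (3.09) and SB15 (4.67), and SB33, SB80 and SB165 lay between 8.95 and 9.05. A pair of further gains had SB80 and SB189 as the low lines. Ta.23013.3.S1_s_at read 9.84 and 9.65 in SB138 and 3.51 in SB80 and 6.03 in SB189, and its difference of 2.08 did not pass without SB80. Ta.6179.1.S1_at read 10.14 and 10.21, against 3.66 in SB80, 6.73 in SB189 and 9.71 to 10.04 in the remaining lines.

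Other gains set SB138 apart from most lines. Ta.3440.1.S1_at read 12.14 and 12.21 in SB138, against 9.93, 10.51 and 11.54 elsewhere, a difference of 1.63 ± 0.14 (SE, limma adjusted p = 0.00134). It differed from every line but SB33 (11.43) in the pair tests, and its signal was 3.09-fold higher than the mean of the others. Both SB146 arrays read 9.934, so this SE and p-value can be too low. TaAffx.82189.1.S1_at read 6.99 and 7.35 against 3.48 to 6.74, a difference of 1.98 ± 0.15 (SE, limma adjusted p = 0.00078), and it differed from all lines but SB189 (6.74). Both calls held in all 25 settings. Ta.30751.1.S1_at, at 12.14 and 12.16, was only just above SB33 (11.95) and exceeded 5 lines in the pairs, with a 2.30-fold higher signal than the mean of the others.

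The largest loss without overlap was TaAffx.52869.1.S1_s_at. It read 5.74 and 5.73 in SB138, and 5.90, 11.85 and 12.46 as the lowest, median and highest elsewhere. The difference was -4.00 (limma adjusted p = 0.00106), and 2 lines were nearly as low, SB15 at 5.98 and SB146 at 6.16. SB165 lay between, at 6.57 and 8.13, and did not differ from SB138 in the pair test (limma adjusted p = 0.215), while the 4 other lines lay between 11.97 and 12.30. Ta.21264.1.S1_x_at behaved alike, at 5.22 and 5.25 in SB138, 5.44 in SB146, 6.12 in SB15 and 8.24 to 9.04 in the 5 other lines, with a difference of -2.69.

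Ta.5980.1.S1_at was lower in SB138 than in nearly all lines. It read 6.92 and 6.83, against 7.26, 8.59 and 9.08 elsewhere, a difference of -1.63 ± 0.13 (SE, limma adjusted p = 0.00076), and the pair tests passed against all lines but SB53 (7.46). Ta.20175.1.A1_at read 4.60 and 4.43, against 5.21 to 7.36, and differed from 6 lines, with a difference of -1.95. Ta.11358.1.A1_at read 9.86 and 9.61 against 9.90 to 12.26 and fell by 1.77, and another probe set of its cluster, Ta.11358.2.A1_a_at, fell by 0.78 (limma adjusted p = 0.012). On the first, SB80 (9.93) and SB165 (10.25) were nearly as low, and on neither did these lines differ from SB138 in the pair tests. These losses held in all 25 settings.

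Of the 20 probe sets chosen in this way, 7 lost the call in at least 3 settings, while their differences kept their direction. TaAffx.42641.1.S1_at (1.94) lost it in 12 of 25 settings, with differences from 1.67 to 2.21, and TaAffx.58690.1.S1_at (-1.70) in 8, with -1.78 to -1.23. The omission of SB138 replicate 2 ended the calls of TaAffx.120473.1.A1_at (1.57 to 1.78), TaAffx.113059.1.S1_at (-2.61 to -2.16) and TaAffx.92377.1.S1_at (-1.87 to -1.43). The omission of either SB138 array ended those of Ta.24671.1.S1_at (0.85 to 1.50) and Ta.19858.1.A1_at (-2.31 to -1.91). All 7 calls also ended without SB80.

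A few transcripts read near the floor on one side of the comparison. A value within 1 of the floor is an upper bound on the level, so a difference from it is a lower bound. Ta.12178.1.A1_at read 6.04 and 5.71 in SB138 and 2.29 to 2.44 on all 14 other arrays, so SB138 stood alone. The difference was at least 3.55 ± 0.07 (SE, limma adjusted p = 7.13e-08), an at least 11.7-fold higher signal, and all 7 pair tests passed. Both arrays read 2.31 in SB53, SB80, SB146 and SB189, so this SE and these p-values rest partly on tied floor values. They do not give the replicate spread of the transcript. The SD of the SB138 arrays alone was 0.23. TaAffx.65435.1.S1_at read 3.63 and 3.59 in SB138, and the highest other array was SB33 replicate 2 at 3.15; this call ended without both SB80 and SB165. Ta.20015.1.A1_x_at also passed, but all 16 of its arrays lay within 1 of the floor, so no gain was measured there.

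The 3 largest losses to the floor in SB138 were each shared with at least 1 other line. Ta.2434.3.A1_at read 2.44 and 3.22 in SB138 and 2.60 in SB53, while the 6 remaining lines lay between 9.55 and 11.62, and the difference of -7.02 was the largest of all bright calls (limma adjusted p = 1.98e-06). The 3 other bright probe sets of its cluster, such as Ta.2434.2.S1_at at 11.36 and 11.35, did not pass, so the loss was seen on 1 of 4. Ta.6828.1.S1_at read 2.60 and 2.72 in SB138 and 3.03 in SB146, against 8.13 to 8.74 in the other 6 lines, and again no other bright probe set of the cluster passed. Ta.3242.3.A1_at read 2.30 and 2.25, with SB53 (2.25) and SB80 (2.26) as low, SB15 at 5.20 and 4 lines between 9.72 and 10.19. Ta.3242.1.A1_at and Ta.3242.1.A1_a_at fell with it by 4.20 and 3.98, whereas Ta.3242.2.S1_at read 9.42 and 9.61 against 9.34 to 9.69. On an array of fixed probes, a lower transcript level and a sequence difference under the probes cannot be told apart, and in whole leaves neither can fewer cells of a type and less RNA per cell.

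**Figure D4:**
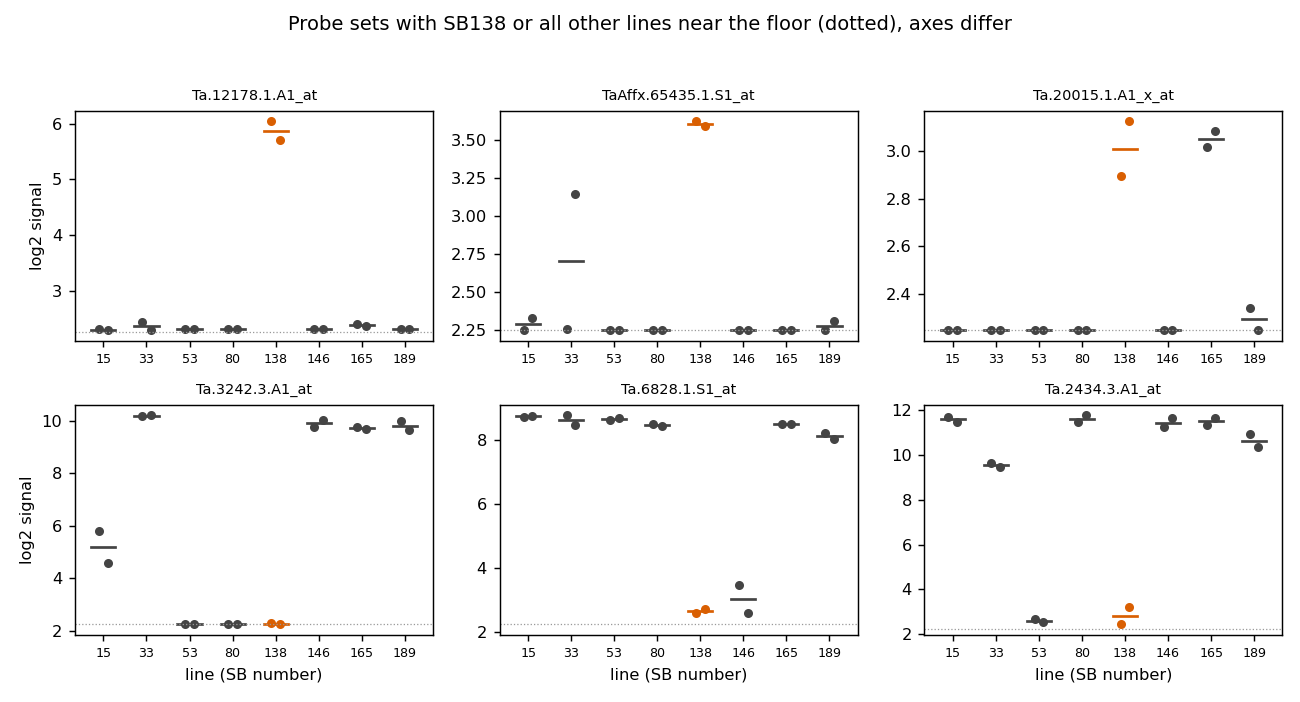
Each panel gives the log2 signal of 1 probe set on the 16 arrays by line, with points for arrays, bars for line means, SB138 in orange and the floor at 2.25 as a dotted line; the vertical axes differ. In the upper row SB138 reads 6.04 and 5.71 for Ta.12178.1.A1_at with all other arrays near the floor, all arrays of Ta.20015.1.A1_x_at lie within 1 of the floor, and in the lower row it reads near the floor together with SB53 and SB80, SB146 or SB53.

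Among the 39 losses of 2 or more, both SB138 arrays lay below every other array for 5, beside 68 of all 199 lower bright calls. The median loss of the 39 differed from 5 of the 7 lines in pairs. The pair test did not pass against SB53 for 19 of the 39, SB15 for 16, SB165 for 15 and SB33 for 8, the fewest. This does not show equal levels. Over all 199 lower bright calls, the pair test passed for 91 against SB53, 95 against SB80, 97 against SB165 and 105 against SB15. It passed for 119 against SB33, 122 against SB189 and 129 against SB146. For 10 of the 39, both SB138 arrays read within 1 of the floor. The 12 gains of 2 or more differed from a median of 3.5 lines. Ta.22426.2.S1_at had the largest difference among them, at 10.74 and 10.50 in SB138 and a difference of 4.70 (limma adjusted p = 0.029). It differed from SB33, SB53, SB80 and SB189 and was named after its values were seen. Its call was not followed through the alternative settings.

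In the pair tests, 9 bright probe sets differed between SB138 and every other line. They were picked after their values were seen. Of the 3 that were higher, TaAffx.91605.1.S1_at read 9.12 and 9.01 in SB138 and 8.18, 8.38 and 8.59 as the lowest, median and highest elsewhere, a difference of 0.66 ± 0.05 (SE, limma adjusted p = 0.00043). Ta.25914.1.A1_at read 7.16 and 7.21 against 6.40 to 6.78, and Ta.5609.2.S1_at read 8.05 and 7.92 against 7.29 to 7.69. SB138 lay above every other array in all 3. Another bright probe set of the last cluster, Ta.5609.1.S1_at, gave a difference of 0.07 and did not pass.

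The remaining 6 were lower. Ta.26118.1.S1_at read 5.53 and 5.52 in SB138 and 6.44, 6.99 and 7.28 elsewhere, a 2.68-fold lower signal (limma adjusted p = 0.000246). TaAffx.29857.1.S1_x_at read 6.86 and 6.97 against 7.97 to 8.72 and fell by 1.49 ± 0.08 (SE, limma adjusted p = 7.3e-05). TaAffx.26039.1.S1_x_at read 7.42 and 7.62 against 8.38 to 9.60, and TaAffx.96604.1.S1_at read 6.43 and 6.36 against 7.11 to 8.66. In these 4 every SB138 array lay below all others, by more than the range of the SB138 pair. Ta.25954.1.S1_x_at was lower by less, at 6.38 and 6.60 against 6.91 to 7.03, and 3 other bright probe sets of its cluster did not pass. TaAffx.80149.1.S1_x_at was intermediate, at 5.48 and 4.54 in SB138, 2.63 in SB53 and 7.41 to 8.60 in the rest. All 9 calls held in the 25 settings. Some of the 9 read identical values on both arrays of a line, so their SE and p-values can be too low. TaAffx.29857.1.S1_x_at read 8.3839 on both arrays of SB15, SB33 and SB80 and on replicate 2 of SB146 and SB165. Ta.5609.2.S1_at read 7.6169 on both arrays of SB80 and on replicate 1 of SB15 and SB165. Ta.25954.1.S1_x_at read 6.9469 on both arrays of SB165 and on replicate 1 of SB33, SB80 and SB189. The same value was thus repeated across lines as well as within them.

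Probe sets of one transcript cluster share the number in their ID. The 421 calls fell in 383 clusters, and 33 clusters held at least 2 calls, all in 1 direction for 32 of them (15 higher, 17 lower). In Ta.14543 alone, 1 probe set rose and 1 fell. Of 417 pairings of a called probe set with a bright mate, 330 had the same sign, and in 84 of these the mate passed as well. In 2 the mate passed with the opposite sign, and in most pairings it did not pass. A pair in which both passed is counted from each side, so these 2 are the Ta.14543 pair. The share of same sign over all bright mates was not computed. Mates can share probes, so they are not independent.

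At 3 calls each, 5 clusters held the most, and they are named because of that count. Ta.21069 was higher, with 8.30 and 7.85 in SB138 on Ta.21069.2.S1_a_at and a difference of 1.61, but SB165 lay above it at 8.73, and the low lines were SB80 at 2.31 and SB189 at 4.12. All 3 of its calls ended without SB80. Ta.5933 was lower in SB138 than on every other array for all 3 called probe sets. Ta.5933.1.S1_at read 8.08 and 8.00 against 8.29, 8.96 and 9.86 elsewhere, a difference of -0.98 (limma adjusted p = 0.00598), with SB189 (8.43), SB15 (8.44) and SB146 (8.44) nearest. Ta.4283 fell by 0.46 to 0.70 with SB33 and SB146 lower still, and Ta.392 by 0.27 to 0.52, with SB80 lower than SB138 on all 3 probe sets. The Ta.392 calls ended in 6 to 12 of 25 settings, all 3 of them without SB138 replicate 2 and without SB15 replicate 1, and 5 of the 6 calls in Ta.5933 and Ta.4283 ended without 1 or the other SB138 array.

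The last comparison asked which lines SB138 differed from. Among bright probe sets SB138 differed from SB80 at 537 (2.72%), from SB189 at 489 (2.48%), from SB146 at 424 (2.15%) and from SB15 at 380 (1.93%). The fewest differences were with SB165 at 303 (1.53%), SB33 at 288 (1.46%) and SB53 at 280 (1.42%). With only bright probe sets tested, SB189 came first with 1081 and SB80 second with 1038, and SB53 again had the fewest at 523. Against SB80, 343 were higher in SB138 and 194 lower, whereas against SB33 the split was 110 higher and 178 lower. SB80 arrays correlated least with SB138, at 0.9696 to 0.9721 over bright probe sets, and SB53 arrays reached 0.9823. The pairs share the SB138 arrays, so their counts are not independent.

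Few calls in SB138 held against every line in pairs, and a pair that did not pass does not show equal levels. Of the 421 bright calls, 98 differed from 2 lines in pairs, 95 from 3 and 93 from 4, and 9 from none. The most common combination was a higher level than in SB80 and SB189 alone, at 37 of the 222 gains, the pattern seen in LOC780602, Ta.6179.1.S1_at and Ta.21069. Losses were spread over more lines: 58 of the 199 differed from 4 lines and 44 from 5, against 35 and 21 of the 222 gains. Taking the closest line mean for each of the 421, SB53 was nearest to SB138 for 86, SB165 for 80 and SB189 for 29.

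**Figure D5:**
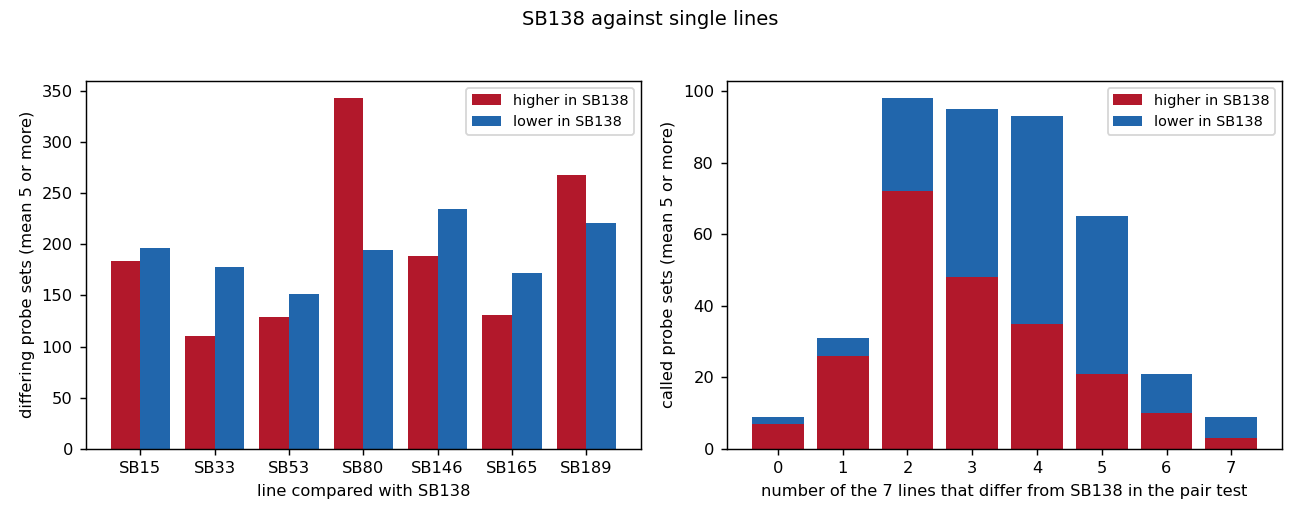
The left panel counts bright probe sets that differ between SB138 and each line, higher (red) and lower (blue) in SB138, with 343 and 194 for SB80. The right panel counts the 421 bright calls by the number of lines from which SB138 differs in the pair tests, and gains peak at 2 lines and losses at 4.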

How the data were processed

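The authors deposited 1 table of log2 signals for 61290 probe sets on 16 arrays. The submitters' processing notes name RMA and GCRMA, methods of background correction, normalization and probe set summary, and which of them made the table is not given in the sources used here. Here 175 control probe sets were left out, and 61115 were fitted with limma 3.58.1 in R 4.3.3 (lmFit, eBayes, 8 line means, no covariate, 8 residual degrees of freedom). SB138 was tested against the mean of the 7 other line means and against each line. Benjamini-Hochberg adjustment ran over all probe sets, for pairs over the 7 pairs as well, with a threshold of 0.05. Control measures were tested by exact permutation over arrays. No depth exists for arrays, and their number limits the precision.

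Gene symbols came from the platform annotation (1273 probe sets, 771 genes, 1272 probe sets matched in RefSeq, IWGSC CS RefSeq v2.1). Of the genes, 102 have a name or synonym. The 27 gene lists were searched in symbols and synonyms only: 15 had no member, 7 had a bright member, and the gibberellin list alone held a call. The groups in the text were drawn up from symbols afterwards. Members, lists and tests were chosen with earlier results of these data known. Named were annotated genes that passed or had the 10 lowest p-values, with all their probe sets; per direction the 10 largest calls without overlap among unnamed bright probe sets, with their cluster; per direction the 3 largest calls with one side within 1 of the floor; and up to 3 members per list. Alternatives were a filter on dim probe sets, quantile normalization, subtracted array medians, another prior, array weights, a block for the field replicate, and the omission of each array, of SB80, of SB165 or of both.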

Additional observations from a re-analysis of the deposited data

How the results depend on the processing

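No named call reversed in the 25 alternatives. Of the 57 other named probe sets that passed, 31 kept the call in every alternative and 26 lost it in at least 1. Of 100 that did not pass, 12 passed in at least 1. When only bright probe sets were tested, 837 passed (422 higher, 415 lower), and with array medians subtracted 680 (378 higher, 302 lower). The pair counts with only bright probe sets tested were 710 for SB15, 591 for SB33, 523 for SB53, 1038 for SB80, 893 for SB146, 699 for SB165 and 1081 for SB189. Without both SB80 and SB165, 130 bright and 227 of all probe sets were higher. Leaving out 1 array gave 293 to 682 bright calls (149 to 416 higher, 144 to 288 lower). Over all probe sets it gave 986 to 2409 calls (364 to 2026 higher, 232 to 1086 lower), with the most without SB138 replicate 1, and all 16 such counts exceeded the 621 by over 1.5 times. Testing only bright probe sets changed both the number tested and the fitted prior. The causes of these changes in count were not tested.

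With the field replicate as a block, 584 of all and 399 of the bright probe sets passed (207 higher, 192 lower). The block ended the calls of LOC543424, TaAffx.42641.1.S1_at, Ta.24671.1.S1_at, TaAffx.92377.1.S1_at, Ta.19858.1.A1_at and the 3 Ta.392 probe sets. The correlation of replicate differences ran from -0.21 to 0.38 over 28 pairs of lines, with a median of 0.14, 16 over 0.1 and 5 below -0.1. Not every pair exceeded 0.1, so the numbers were not taken to pair the samples. The arrays of SB138 carry no detection calls here, so levels near the floor limit the dim calls: for 83 of 200, all 14 other arrays lay within 1 of it.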
